A study of Mus musculus with 6 samples.

Results

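The Adam genes encode ADAM proteins, membrane proteins named for a disintegrin and a metalloprotease domain, and 33 of the 36652 genes in the deposited table carry a symbol made of Adam followed directly by a digit. Names such as Adamts and Adamdec, which belong to secreted relatives, were left out by that rule. All 33 reached the mean of 0.5 normalized counts set for testing, and 32 had a mean of at least 10. By textbook knowledge 21 are testis-predominant in the mouse and are called germ-line here, 11 are broadly expressed and are called somatic, and Adam28 is epididymal. Another epididymal member, Adam7, was not analysed here. The words germ-line and somatic name lists of genes: whole-tissue RNA does not show which cells a read came from.

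Whole testes of mice labelled Ccdc117ko and of mice labelled WT were sequenced as RNA, with 3 libraries each and an age of 8 weeks in every label. Ccdc117 is named for a coiled-coil domain, and the series title links its deficiency with androgen excess and fertility. The labels describe neither the allele, the strain nor the source of the replicates, so p-values measure only the spread between these samples, which may be technical. In whole tissue, fewer cells of a type and less RNA per cell cannot be told apart. The recovered reads came to 39368277, 38521519 and 38964966 in the Ccdc117ko libraries and to 35791616, 43461692 and 39939156 in the WT libraries. Ccdc117 itself had 3478, 3772 and 3908 normalized counts in Ccdc117ko testes, against 3657, 3826 and 3931 in WT testes (log2 change -0.03, SE 0.05, limma adjusted p = 0.763), so the gene total does not check the genotype labels.

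ADAM proteins fall into a catalytic and a non-catalytic kind. The catalytic ones, such as ADAM10 and ADAM17, cut other membrane proteins close to the cell surface and release their outer parts, a process called shedding. Many testis members instead reach the sperm surface as adhesion proteins, where a network around ADAM2 and ADAM3 is needed for sperm to enter the oviduct and to bind the egg coat. ADAM1A, ADAM1B and ADAM2 are the fertilin subunits, and ADAM3 is also called cyritestin.

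The germ-line genes differed in structure in a way the symbol rule did not use. In the mm10 annotation (GENCODE M21), the consensus coding transcripts of 16 of the 21 hold a single coding exon, while those of Adam2, Adam3, Adam5, Adam18 and Adam32 hold 19 to 22. Each somatic gene has 16 to 30 coding exons. This split was made after the values had been seen. Many members lie side by side. Adam18, Adam3, Adam5, Adam32 and the somatic Adam9 follow each other on the minus strand at chr8:24602246-25016927. The single-coding-exon genes Adam24, Adam25, Adam20 and Adam39 lie on the plus strand at chr8:40675077-40827037, and Adam26b, Adam26a, Adam34l and Adam34 on the minus strand at chr8:43519762-43710049. Adam29, the ninth single-coding-exon gene of that chromosome, stands alone at chr8:55870912-55906948. Outside chromosome 8, Adam6b and Adam6a are neighbours at chr12:113489511-113546465 beside the immunoglobulin heavy chain genes, Adam4 and Adam21 at chr12:81419443-81568474, and Adam1b and Adam1a at chr5:121500098-121545482.

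Copies in these clusters share sequence. Of the 50-base words of its longest transcript, Adam26b shared 28.8% with Adam26a, Adam25 shared 28.2% with Adam39, Adam6b shared 29.6% with Adam6a, and Adam1b shared 32.4% with Adam1a. Adam4 shared 13.2% with the neighbouring gene Gm4787 and lies within Cox16 on the same strand. For Adam1a the overlap was with a read-through gene on the same strand, Gm42878, which covers 98.9% of those words. Gm42878 had 134, 73.2 and 0 normalized counts in Ccdc117ko testes and 0 in each WT library. How the authors assigned shared reads is not given in the sources used here, so the counts of these copies are uncertain to that extent.

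Some pairs of copies also resemble each other in their promoters. RefSeq promoter windows (GRCm38.p6, 250 bases before and 50 after the start) were at hand for 18 members, 11 germ-line genes with a single coding exon and 7 somatic genes with 9 windows. The germ-line windows were low in GC, with a median of 39.3% and a range of 35.3% to 51.0%. The somatic windows had a median of 65.3% and a range of 49.3% to 73.3%, and the median of all 32851 RefSeq promoters was 52.7%. Windows of 4 chromosome 8 genes hold an 11-base word, GTTGCTAGGCA, and are shown for it, from the first of the 250 bases before the start to the last. Capitals mark that word and CCAAT, or ATTGG where CCAAT lies on the other strand. Adam25 is at chr8:40751958-40752207 (plus strand), Adam20 at chr8:40793023-40793272 (plus), Adam26b at chr8:43528138-43528387 (minus) and Adam34l at chr8:43703425-43703674 (minus, inside the annotated span of Adam34). In GENCODE M21 the Adam34l gene spans chr8:43624951-43627276. Its RefSeq window thus lies upstream of and apart from that gene, and may not be the promoter of the counted Adam34l.
Adam25: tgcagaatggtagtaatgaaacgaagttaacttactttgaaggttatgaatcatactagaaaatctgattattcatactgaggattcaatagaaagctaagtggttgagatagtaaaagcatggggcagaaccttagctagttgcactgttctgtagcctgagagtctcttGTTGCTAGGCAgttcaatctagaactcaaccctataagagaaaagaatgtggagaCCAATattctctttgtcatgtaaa
Adam20: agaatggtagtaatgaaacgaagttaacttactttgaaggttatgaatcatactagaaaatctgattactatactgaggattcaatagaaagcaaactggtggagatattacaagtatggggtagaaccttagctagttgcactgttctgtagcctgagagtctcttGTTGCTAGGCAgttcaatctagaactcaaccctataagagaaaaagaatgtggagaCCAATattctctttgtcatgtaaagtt
Adam26b: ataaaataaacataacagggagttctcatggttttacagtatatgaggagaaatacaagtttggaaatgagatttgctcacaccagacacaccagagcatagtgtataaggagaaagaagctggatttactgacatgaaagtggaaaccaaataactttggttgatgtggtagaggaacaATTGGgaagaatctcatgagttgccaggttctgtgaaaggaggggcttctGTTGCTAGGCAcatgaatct
Adam34l: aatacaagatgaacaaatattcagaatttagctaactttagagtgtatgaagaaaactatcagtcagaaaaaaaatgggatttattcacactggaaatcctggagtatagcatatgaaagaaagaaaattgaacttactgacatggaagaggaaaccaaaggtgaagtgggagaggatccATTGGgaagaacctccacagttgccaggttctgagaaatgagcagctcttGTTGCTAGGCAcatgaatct

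The word begins 79 and 83 bases before the start in Adam25 and Adam20 and 20 bases before it in both Adam26b and Adam34l. The full windows of Adam25 and Adam20 were identical at 94.7% of 300 bases, and those of Adam26b and Adam34l at 72.0%, so the 4 matches are not separate observations. On either strand, 0.122% of all RefSeq promoters (40 of 32851) hold GTTGCTAGGCA, and 3.66% hold its first 7 bases, GTTGCTA, which no other member window holds. Both words were chosen after these promoters had been read. Other motifs searched on both strands were TGACGTCA, the full site of CREB-family factors such as CREM of spermatids, in 0 of the 20 windows and 1.79% of all promoters. Its shorter part TGACG, which lies within it, was found in the Adam10 window and in 20.8% of all promoters. TATAAA was in 4 windows, all of them germ-line, and in 13.6% of all promoters. CCAAT was in 7 of 11 germ-line and 4 of 9 somatic windows, and in 37.4% of all promoters. These matches describe letters in the windows and are not tested sites.

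Per length, the most abundant Adam genes were those of the sperm surface network. Levels here are normalized counts per kb of the longest annotated transcript, averaged over the 3 libraries of a genotype. Adam3 had 13290.0 in Ccdc117ko testes and 14228 in WT testes, and Adam5 had 13127 in Ccdc117ko testes and 14079 in WT testes. Those genes did not differ from each other beyond their spread. Adam32, a testis member from the same cluster, followed with 9055 in Ccdc117ko testes and 9598 in WT testes, and Adam2 with 5358 in Ccdc117ko testes and 5624 in WT testes.

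These 4 genes took most of the family's RNA. Together they held 68.0 ± 0.505% of all Adam normalized counts in Ccdc117ko testes and 70.1 ± 1.23% in WT testes (SD, n = 3 each). The 11 somatic genes held 3.13 ± 0.115% in Ccdc117ko testes and 3.21 ± 0.0742% in WT testes. The whole family held 0.408 ± 0.0112% of all reads in Ccdc117ko testes and 0.424 ± 0.009% in WT testes, ranges that overlapped.

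Below them, Adam1b, Adam18, Adam1a, Adam6a, Adam24 and Adam6b had means over the 6 libraries of 1837 to 1047 normalized counts per kb. The value of Adam1a, 1657, rests on a long read-through transcript and is 2267 per kb of its consensus transcript. The highest somatic gene was Adam15 with 373 per kb, and of the germ-line genes Adam34, Adam26b and Adam34l were lower, at 306, 225 and 87.7. Per kb of its shorter consensus transcript Adam15 had 491, which is also above Adam21 at 409. At the low end, Adam19, Adam33 and Adam12 had 10.8, 9.39 and 6.49 per kb. Adam28 had 0 reads in each Ccdc117ko library, against 2.2, 3.6 and 0 normalized counts in the WT libraries, too few for a comparison.

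**Figure D1:**
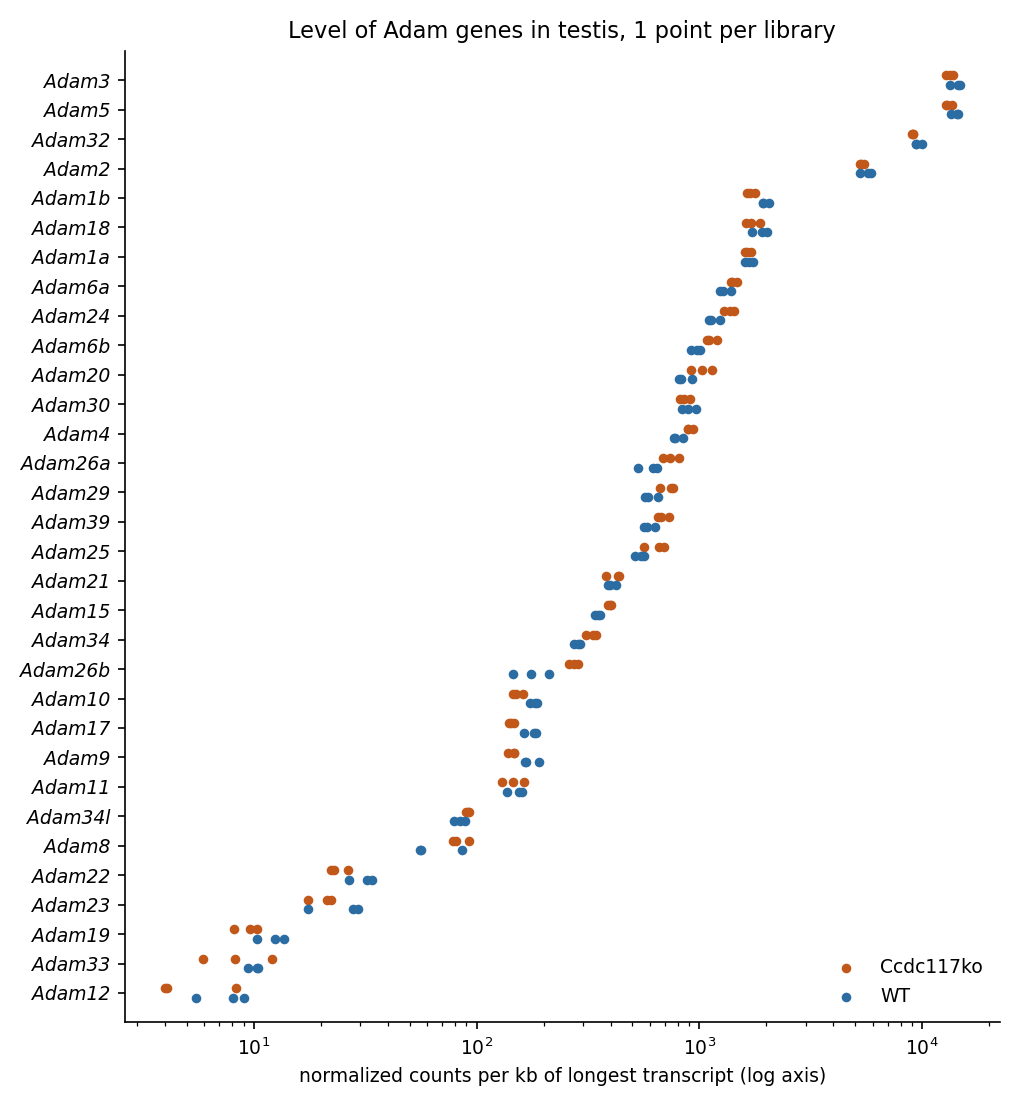
Level of the 32 Adam genes averaging 10 or more normalized counts, with 1 point per library, for Ccdc117ko and WT testes. The log axis gives normalized counts per kb of the longest annotated transcript. Adam28, with a lower mean, is not drawn. Adam3, Adam5, Adam32 and Adam2 lie at the top for both genotypes, and the libraries of a gene lie close together except for genes of the lowest levels.

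Few Adam genes passed the test between genotypes, and the differences were small. In limma over all genes, 5 of the 33 members were called at an adjusted p under 0.05, against 6.8% of the 32783 genes tested. Adam26b, Adam6b and Adam15 rose and Adam1b and Adam17 fell in Ccdc117ko testes. The called shares were 9.09% higher and 6.06% lower for the members, against 3.7% and 3.1% for all genes, and the members' shares rest on 3 and 2 genes. Among genes averaging 10 or more, as 32 of the members did, the same fit called 5.16% higher and 4.22% lower. The median log2 change was 0.12 for the germ-line list, -0.26 for the somatic list and 0.00 for all genes tested.

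Within the germ-line list, direction differed with gene structure. Of the 16 single-coding-exon genes, 13 had a log2 change above 0, 2 rose, 1 fell and 13 were not called, with a median of 0.21 and called shares of 12.5% higher and 6.25% lower. All 5 germ-line genes with several coding exons had changes below 0, from -0.07 to -0.12, and none was called. For 9 of the 16 all Ccdc117ko values lay above all WT values, and for 1 they lay below, whereas 27% of all tested genes had no overlap, 13.7% higher and 13.3% lower, as did 34.5% of those averaging 10 or more. Among protein-coding genes that averaged 10 or more normalized counts, the 1211 with a single coding exon had a median of 0.03 with 7.1% called higher and 2.56% lower. The 14617 such genes with several coding exons had a median of -0.04 with 5.2% called higher and 5.88% lower. The difference between the Adam gene structures was seen in these data and has no test.

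**Figure D2:**
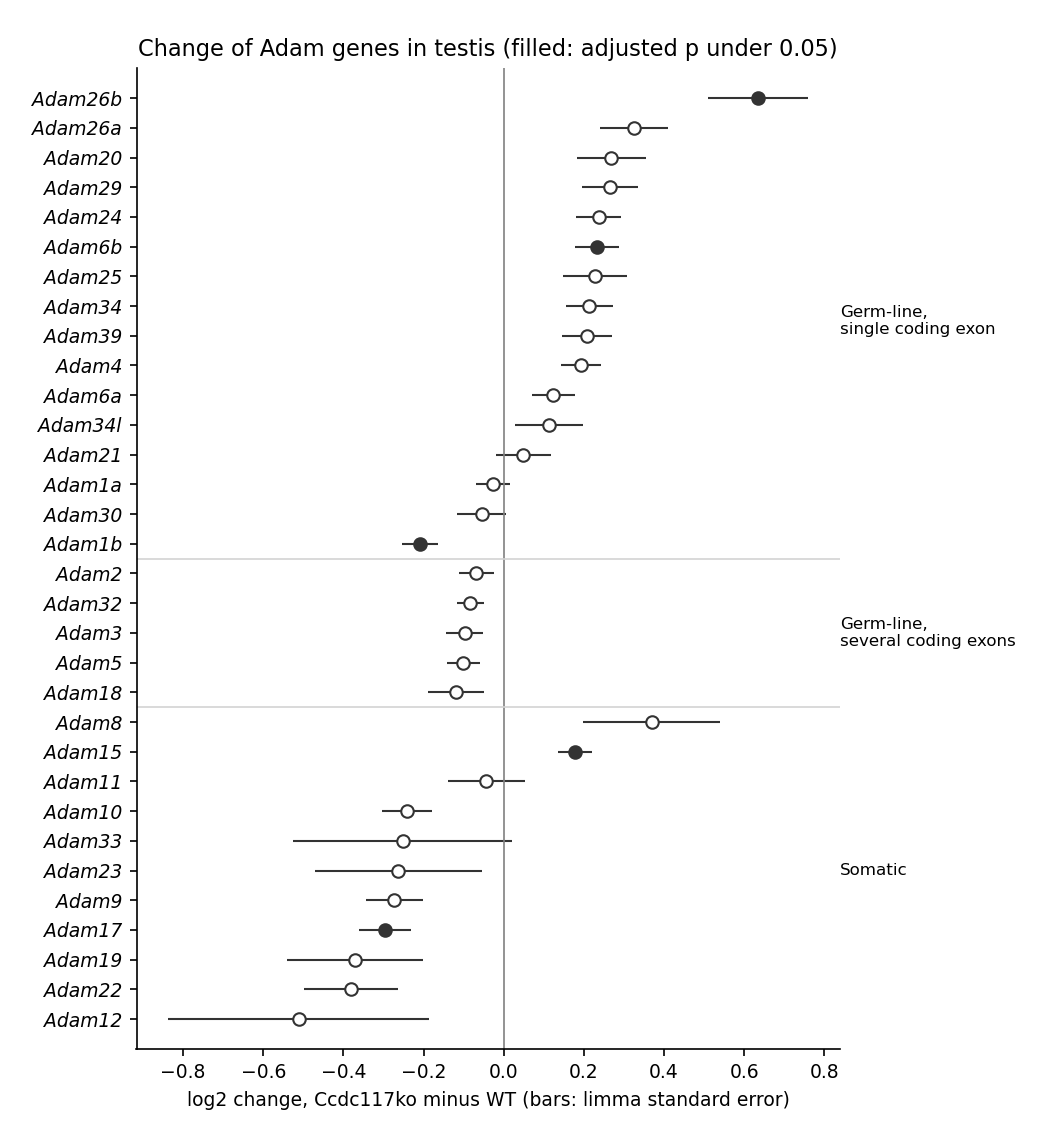
Log2 change between Ccdc117ko and WT testes for the 32 Adam genes averaging 10 or more normalized counts, grouped as germ-line with a single coding exon, germ-line with several coding exons, and somatic; points are limma estimates, bars their standard errors, and filled points have an adjusted p under 0.05. The 13 points above 0 in the top group, the 5 just below 0 in the middle group and the 9 below 0 among 11 somatic genes can be read from it.

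The 9 single-coding-exon genes of chromosome 8, among them those first described as testases, all had log2 changes above 0. Their median was 0.24, 7 had no overlap with Ccdc117ko higher, against 13.7% of all tested genes, and 1 was called higher, against 3.7% of all. Of the 1211 protein-coding single-coding-exon genes averaging 10 or more, 262 had no overlap with Ccdc117ko higher and 7.1% were called higher. That set includes these 9. Adam26b had 676, 707 and 642 normalized counts in Ccdc117ko testes, against 521, 435 and 361 in WT testes. Every Ccdc117ko library was above every WT library, and the log2 change was 0.63 (SE 0.12, limma adjusted p = 0.0288), a fold of 1.55. Its copy Adam26a, or testase 3, had 1716, 1844 and 2017 in Ccdc117ko testes, against 1599.6, 1535 and 1323 in WT testes. The groups did not overlap, and the change of 0.32 (SE 0.09) did not pass (limma adjusted p = 0.0636). The ratio of Adam26b to Adam26a was 0.365 ± 0.0409 in Ccdc117ko testes and 0.294 ± 0.028 in WT testes (SD, n = 3 each; two-sided exact permutation p = 0.2, where 0.1 is the smallest possible and 3 ratios were tested, adjusted p = 0.2).

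Their neighbours Adam34l and Adam34 had smaller values of change. Adam34l had 209, 212 and 215 normalized counts in Ccdc117ko testes, against 184.5, 207 and 196.5 in WT testes, a change of 0.11 (SE 0.09). Adam34 had 802.5, 861 and 889 in Ccdc117ko testes, against 751, 709.5 and 738 in WT testes, a change of 0.21 (SE 0.06). Neither gene had overlapping groups and neither was called (limma adjusted p = 0.493 and 0.0713).

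In the upstream cluster, Adam24 came closest to the threshold. This gene, testase 1, had 3707, 3960.1 and 4125 normalized counts in Ccdc117ko testes, against 3559.5, 3254 and 3196 in WT testes. The groups did not overlap, with a change of 0.24 (SE 0.06, limma adjusted p = 0.0501). Adam39 had 1771, 1717 and 1925 in Ccdc117ko testes, against 1664, 1527 and 1494 in WT testes, again with no overlap and a change of 0.21 (SE 0.06, limma adjusted p = 0.0885). Adam20 had 2372.5, 2670.5 and 2953 in Ccdc117ko testes, against 2394.0, 2133 and 2096 in WT testes. Adam25, or testase 2, had 1472, 1811 and 1722 in Ccdc117ko testes, against 1480.2, 1434 and 1345 in WT testes. For these genes the lowest Ccdc117ko library fell below the highest WT library, and the changes of 0.27 (SE 0.09) and 0.23 (SE 0.08) did not pass (limma adjusted p = 0.107 and 0.139). The lone Adam29 had 1822, 2026 and 2073 in Ccdc117ko testes, against 1778, 1596 and 1556 in WT testes, with no overlap and a change of 0.26 (SE 0.07, limma adjusted p = 0.0638).

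The same libraries tended to be high or low across these 9 genes. Ccdc117ko replicate 3 was the highest Ccdc117ko library for 7 of the 9 and replicate 1 the lowest for 7, while WT replicate 1 was the highest WT library for 8 and replicate 3 the lowest for 7. Several of the 9 are near copies that can share reads, so they are not 9 separate observations. Protein-coding genes with transcripts of the same length, 2326 to 2887 bases, and a mean of 10 or more had a median change of -0.02. This set of 1934 includes the 9 Adam genes, with 4.96% called higher and 3.21% lower. With each library's trend in transcript length and GC removed, Adam26b was at 0.64 (limma adjusted p = 0.0285), Adam24 at 0.26 (0.0321) and Adam29 at 0.28 (0.0413). The other 6 were above 0 and did not pass, with limma adjusted p from 0.0511 for Adam34 to 0.514 for Adam34l. That correction also moved the calls over all genes to 1446 higher and 431 lower, against 1212 and 1016 without it. Of 7 protein-coding genes other than Adam within 200 kb of the Adam24 cluster, 6 had changes below 0, and Cnot7, a subunit of the deadenylase complex, fell by 0.24 (limma adjusted p = 0.025). Around the Adam26b cluster 3 genes were measured, all above 0 and none called: the pseudogenes Gm5347 at 0.31 and Gm35629 at 0.04, and Gm45488, antisense to Adam34, at 0.30 (limma adjusted p = 0.164, 0.968 and 0.162). Gm5347 and Gm45488 had no overlap between genotypes. Both lie across Adam34, and Gm5347 shares 15.9% of the 50-base words of Adam34, so their reads cannot be fully told apart from those of Adam34.

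**Figure D3:**
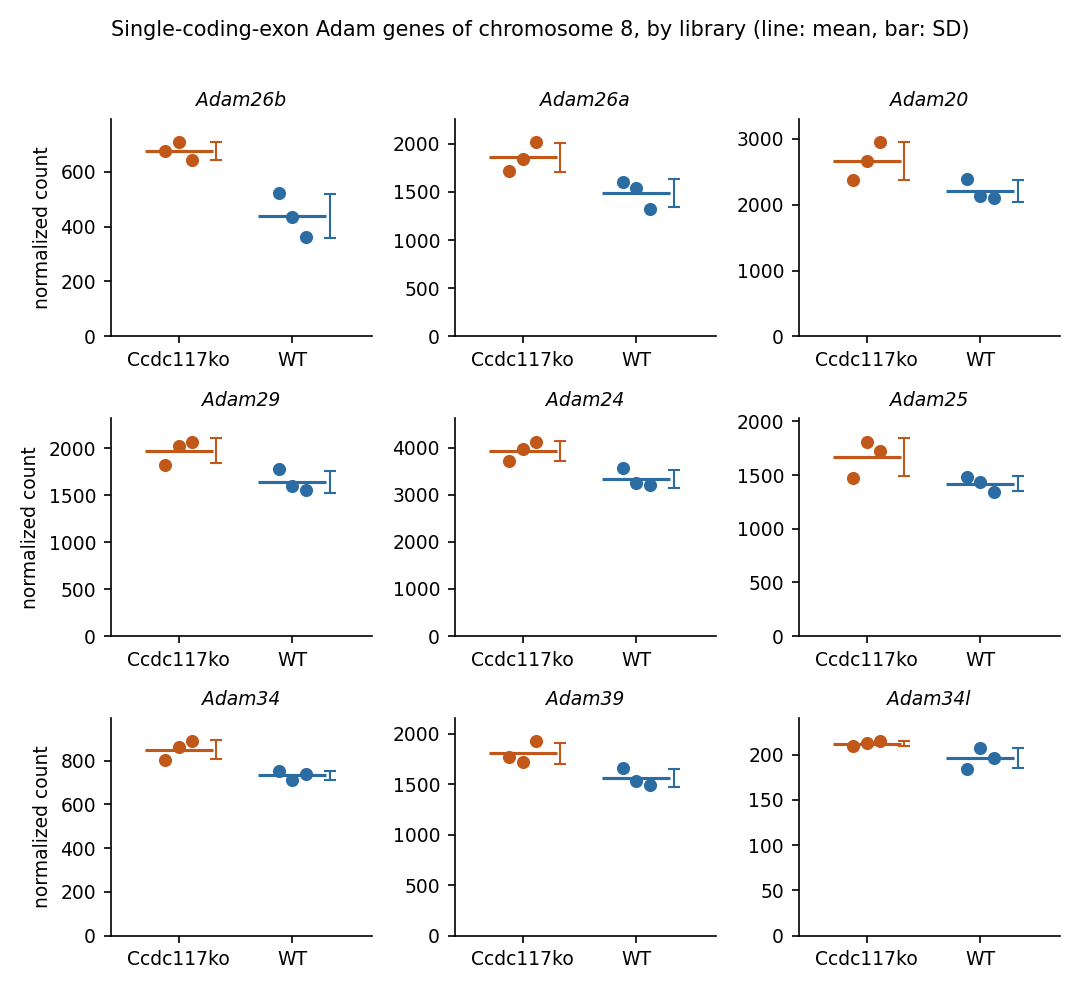
Normalized counts of the 9 single-coding-exon Adam genes of chromosome 8 in each library, with Ccdc117ko at the left and WT at the right of each panel, lines for the means and bars for the SD of 3 libraries, each axis from 0. All Ccdc117ko points lie above all WT points in 7 panels; the points overlap for Adam20 and Adam25.

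On other chromosomes the single-coding-exon genes went both ways. Adam6b, which with Adam6a encodes sperm proteins needed for normal fertility in mice, had 2816, 2766 and 3059.6 normalized counts in Ccdc117ko testes, against 2552, 2475 and 2328 in WT testes. It rose by 0.23 (SE 0.05, limma adjusted p = 0.0461) with no overlap. Adam6a had 3566, 3759.9 and 3534 in Ccdc117ko testes, against 3557, 3150.3 and 3269.5 in WT testes, overlapping groups with a change of 0.12 (SE 0.05, limma adjusted p = 0.22). The Adam6b to Adam6a ratio was 0.797 ± 0.0653 in Ccdc117ko testes and 0.738 ± 0.041 in WT testes (SD, n = 3 each; two-sided exact permutation p = 0.2, adjusted p = 0.2). Counts of Ighm, the immunoglobulin gene next to them, were 108, 94.5 and 85.7 in Ccdc117ko testes and 123, 76.2 and 168 in WT testes.

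Adam4, a sperm surface member, had 2234, 2235 and 2353 normalized counts in Ccdc117ko testes, against 2104, 1919.6 and 1949 in WT testes. The groups did not overlap and the change of 0.19 (SE 0.05) did not pass (limma adjusted p = 0.0612). Gm4787, which shares sequence with Adam4, had 6745, 7310.4 and 7422 in Ccdc117ko testes, against 6669.8, 6441.5 and 6302 in WT testes, a change of 0.14 (SE 0.05, limma adjusted p = 0.106). Adam21 at 0.05 and Adam30 at -0.06 had overlapping groups and were not called (limma adjusted p = 0.732 and 0.65).

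Of the fertilin genes Adam1b fell, and Adam1a and Adam2 were not called. Adam1b, the fertilin subunit found on sperm with ADAM2, had 5662, 5459 and 5949.9 normalized counts in Ccdc117ko testes, against 6414, 6460.4 and 6846 in WT testes. It fell by 0.21 on the log2 scale (SE 0.05, limma adjusted p = 0.0366) with no overlap. With the length and GC correction its change was -0.14 and the call was lost (limma adjusted p = 0.107), as it was with upper-quartile scaling (0.0509). Adam1a, whose product pairs with ADAM2 in the endoplasmic reticulum and is needed for ADAM3 to reach the sperm surface, had 7634, 7787 and 8131 in Ccdc117ko testes, against 8330.2, 7701 and 7979.6 in WT testes. Its groups overlapped, at a change of -0.03 (SE 0.04, limma adjusted p = 0.756). The ratio of Adam1b to Adam1a was 0.725 ± 0.0212 in Ccdc117ko testes and 0.822 ± 0.0463 in WT testes (SD, n = 3 each; two-sided exact permutation p = 0.1, the smallest possible, adjusted p = 0.2), and was lower in each Ccdc117ko library than in any WT library. Hectd4, a large gene within 200 kb of them, fell by 0.41 (limma adjusted p = 0.0155), and Atxn2 fell by 0.20 (limma adjusted p = 0.0285), while the other 13 genes measured there were not called.

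The germ-line genes with several coding exons had small differences that did not pass. Adam2 had 13628, 13444 and 13930.5 normalized counts in Ccdc117ko testes, against 13476, 14591 and 14972 in WT testes. Adam3 had 36415.5, 35053 and 37894.5 in Ccdc117ko testes, against 36711, 39806 and 40567 in WT testes. Adam5 had 36193, 35676 and 38047 in Ccdc117ko testes, against 37488, 39907 and 40489.6 in WT testes. For each of these WT replicate 1 was the lowest WT library and overlapped with the Ccdc117ko values. Adam18 had 4040.4, 3834 and 4411 in Ccdc117ko testes, against 4078, 4515 and 4757 in WT testes. Adam32 alone had no overlap, with 22329, 21955 and 22272 in Ccdc117ko testes, against 23042.5, 23088.5 and 24415 in WT testes. The log2 changes were -0.07 for Adam2, -0.10 for Adam3 and Adam5, -0.12 for Adam18 and -0.08 for Adam32, with standard errors of 0.03 to 0.07 and limma adjusted p of 0.188 to 0.411.

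Somatic Adam genes mostly had lower values in Ccdc117ko testes. Of 11 genes, 9 had changes below 0, 1 rose, 1 fell and 9 were not called, against 3.7% of all tested genes called higher and 3.1% lower. For 5 of them there was no overlap with Ccdc117ko lower, as for 13.3% of all tested genes. Of the 14617 protein-coding genes with several coding exons averaging 10 or more, 8349 were below 0. In that set 3264 had no overlap with Ccdc117ko lower. Adam17, the sheddase of tumour necrosis factor and of ligands of the epidermal growth factor receptor, had 625, 639 and 660.1 normalized counts in Ccdc117ko testes, against 808.5, 730.2 and 826.5 in WT testes. It fell by 0.30 (SE 0.06, limma adjusted p = 0.0373). Adam10, which starts Notch receptor cleavage, had 693, 666 and 744 in Ccdc117ko testes, against 837, 795 and 853 in WT testes, a change of -0.24 (SE 0.06) that did not pass (limma adjusted p = 0.0586). Adam9, a neighbour of Adam32, had 598, 557 and 594 in Ccdc117ko testes, against 676, 669 and 770.4 in WT testes, a change of -0.27 (SE 0.07, limma adjusted p = 0.0645). The groups of all these sheddase genes were apart. With the length and GC correction the change of Adam17 was -0.21 and its call was lost (limma adjusted p = 0.085), and Adam10 and Adam9 were at -0.16 and -0.19.

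Adam15, or metargidin, was the somatic gene that rose. It had 1525, 1570.0 and 1553 normalized counts in Ccdc117ko testes, against 1377, 1397 and 1335.5 in WT testes, a change of 0.18 (SE 0.04, limma adjusted p = 0.0488) with no overlap. The antisense gene 4731419I09Rik overlaps it on the opposite strand. Adam8, known from leukocytes, had 288, 337 and 296 in Ccdc117ko testes, against 316, 207 and 203 in WT testes. WT replicate 1 lay within the Ccdc117ko range, and the change of 0.37 (SE 0.17) did not pass (limma adjusted p = 0.246).

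ADAM11, ADAM22 and ADAM23 lack protease activity and bind LGI proteins in neurons. Adam11 had 743.5, 831 and 661 normalized counts in Ccdc117ko testes, against 696, 788.5 and 816 in WT testes, at -0.04. Adam22 had 244, 204 and 211 in Ccdc117ko testes, against 247, 315 and 298 in WT testes, at -0.38 (SE 0.12, limma adjusted p = 0.0982), with no overlap. Adam23 had 112, 143 and 137 in Ccdc117ko testes, against 189, 112 and 179.8 in WT testes, at -0.26. The 4 LGI genes, Lgi1 to Lgi4, were not called either, with a median of 0.05; Lgi4, the most abundant, had 157, 165 and 161 in Ccdc117ko testes, against 196, 157 and 140.5 in WT testes. Among the meltrins, Adam19 had 52.0, 66.1 and 61.5 in Ccdc117ko testes, against 66.2, 79.8 and 87.5 in WT testes, and Adam12 had 64.0, 30.5 and 31.2 in Ccdc117ko testes, against 42.3, 69.1 and 61.9 in WT testes. Adam33 had 43.0, 29.5 and 21.2 in Ccdc117ko testes, against 33.6, 36.8 and 37.3 in WT testes. At these low counts the changes of -0.37, -0.51 and -0.25 had standard errors of 0.17, 0.33 and 0.27, and none was called (limma adjusted p = 0.244, 0.405 and 0.641).

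**Figure D4:**
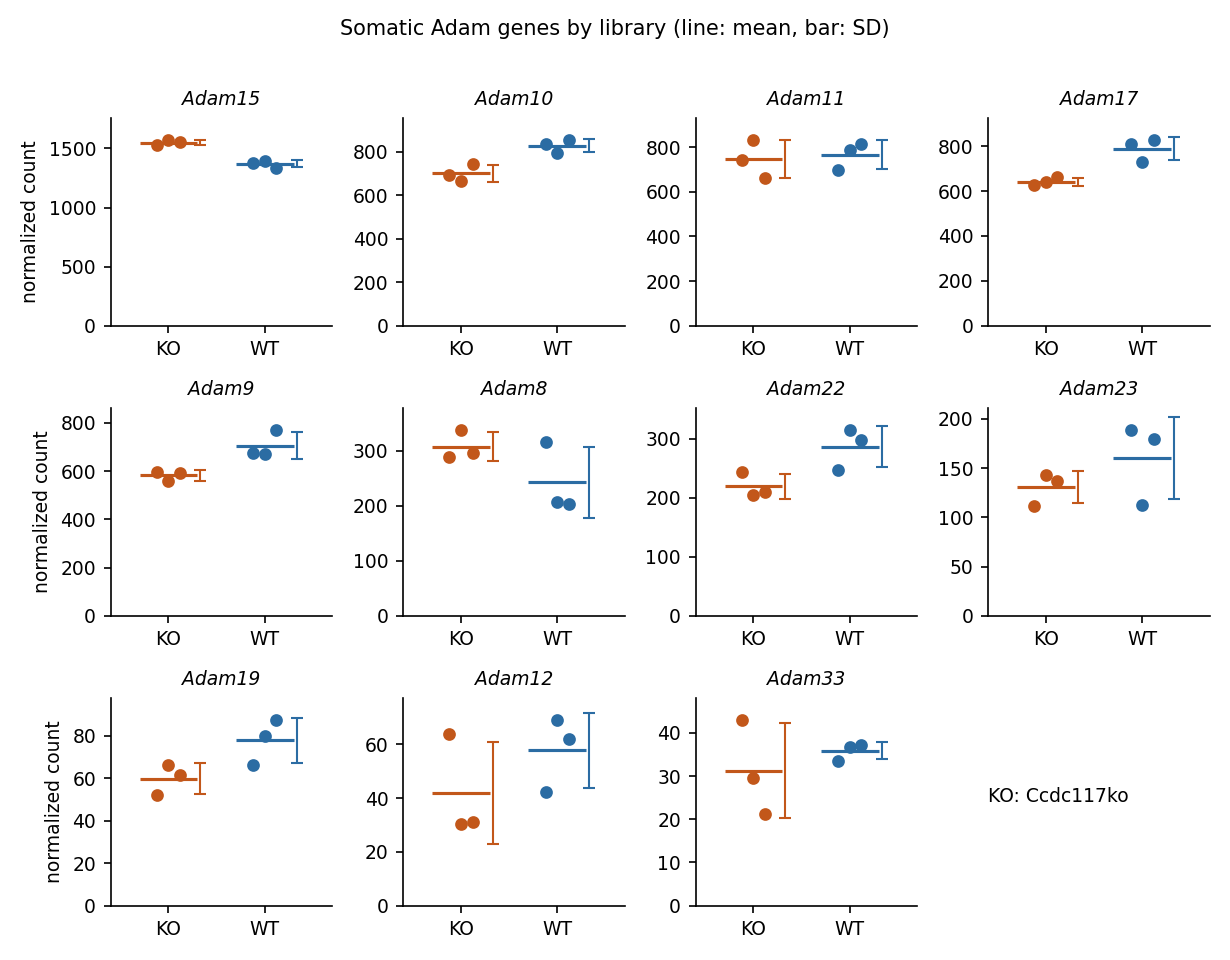
Normalized counts of the 11 somatic Adam genes in each library, with Ccdc117ko (marked KO) at the left and WT at the right of each panel, lines for the means and bars for the SD of 3 libraries, each axis from 0. The points of the genotypes are apart with Ccdc117ko lower for Adam9, Adam10, Adam17, Adam19 and Adam22, and with Ccdc117ko higher for Adam15.

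Calls were also lost in fits with fewer libraries. Without WT replicate 1, Adam26b kept its call (limma adjusted p = 0.0374), while Adam4 (0.0485) and Adam8 (0.0473) gained one. Without WT replicate 2 or 3, or any one of the Ccdc117ko replicates, no member was called by limma, while 13 to 17 of the 33 had an unadjusted p under 0.05. In those 5 fits 6 to 22 of all genes were called by limma, against 2228 with all libraries. The log2 change over the 6 libraries left out in turn stayed between 0.50 and 0.77 for Adam26b, 0.19 and 0.26 for Adam6b, 0.16 and 0.19 for Adam15, -0.24 and -0.18 for Adam1b, and -0.35 and -0.26 for Adam17. Over the 6 libraries left out in turn, the limma adjusted p ranged to 0.165 for Adam26b, 0.167 for Adam6b, 0.156 for Adam1b, 0.145 for Adam15 and 0.15 for Adam17. With all libraries, Adam6b lost its call with TMM scaling (limma adjusted p = 0.0513), and Adam15 with TMM scaling (0.0533), no filter (0.0537) or limma-voom (0.0533). With the length and GC correction Adam17 was at -0.21 and lost its call (limma adjusted p = 0.085). With the test restricted to the 22878 genes that averaged 10 or more, limma called 15 of the 32 members, 10 higher and 5 lower, against 16.6% of these genes, 8.35% higher and 8.25% lower. These included 7 of the 9 chromosome 8 genes. There Adam26b was called with each of the 6 libraries left out, Adam17, Adam1b and Adam6b with 4 of the 6 and Adam15 with 1. By the authors' deposited table, an FDR under 0.05 is given for 16 of the 33, 11 higher and 5 lower, and for 11.5% of its 36652 genes. The FDR of Adam26b is 2.34e-07 and that of Adam24 is 0.000247 in the authors' deposited table.

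Among genes for factors that help ADAM3 mature, Pmis2 and Pdilt rose. The list holds 15 genes whose loss in mice is known to impair ADAM3 on sperm or to act in its processing, of which 2 rose, none fell and 13 were not called, with a median log2 change of 0.11. The called share was 13.3% higher, from 2 genes, against 3.7% of all tested genes. Pmis2 had 2212, 2378 and 2453 normalized counts in Ccdc117ko testes, against 1910.0, 1855 and 1820.0 in WT testes, and rose by 0.33 (SE 0.05, limma adjusted p = 0.0169). Pdilt, a testis protein of the disulfide isomerase family, had 6819.6, 7377.5 and 8035 in Ccdc117ko testes, against 6459, 5975 and 5811 in WT testes, and rose by 0.28 (SE 0.07, limma adjusted p = 0.0443). The chaperone genes Clgn at -0.07, Calr3 at 0.17 and Calr at -0.04 were not called (limma adjusted p = 0.407, 0.0807 and 0.619). With 1 library left out, the list had 1 call without WT replicate 1 and 0 without any other.

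Genes that act with the sheddases had values below those of WT more often than above. Of 18 regulators of ADAM10 and ADAM17, 16 had changes below 0, none rose, 1 fell and 17 were not called, against 3.1% of all tested genes called lower, with a median of -0.12. Of all 16652 protein-coding genes averaging 10 or more, 9272 had changes below 0. Timp3, an inhibitor of ADAM17, had 969, 863 and 875 normalized counts in Ccdc117ko testes, against 1114.5, 1050.4 and 1078 in WT testes, and fell by 0.26 (SE 0.06, limma adjusted p = 0.0434). Rhbdf1 and Rhbdf2, the iRhom carriers of ADAM17, were at -0.02 and -0.07, and Tspan14, a tetraspanin partner of ADAM10, was at -0.35 (limma adjusted p = 0.92, 0.793 and 0.0586). The call of Timp3 was lost without any 1 of the 6 libraries and with the length and GC correction, which left 0 calls in the list.

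Of 21 tested ligands and receptors that ADAM10 or ADAM17 can shed, none rose, 6 fell and 15 were not called, a share of 28.6% lower against 3.1% of all tested genes, with a median of -0.30. Vcam1, an adhesion receptor, fell by 0.57 and Kitl, the membrane ligand of Kit made by Sertoli cells, fell by 0.40. Kit, its receptor on spermatogonia, fell by 0.52. Kitl is also counted among the Sertoli markers below and Kit among the spermatogonial markers, so these lists share called genes. The adhesion gene Cdh2 fell by 0.38, the receptor Notch2 by 0.30 and the Notch ligand Jag1 by 0.21. Jag1 had 1053, 1015 and 1025 normalized counts in Ccdc117ko testes, against 1162, 1182 and 1238 in WT testes, and Notch2 had 346, 351 and 388.0 in Ccdc117ko testes, against 443, 436 and 455.0 in WT testes. Limma adjusted p ran from 0.0124 for Vcam1 to 0.0463 for Notch2. With the length and GC correction 3 genes of this list were called lower, and with a library left out 3 without WT replicate 1 and 0 without any other. These values are RNA levels and hold no measure of shedding.

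Marker genes of testis cells also differed. These lists, like those above, were chosen with earlier results of these data known, so their called shares are not independent evidence. Of all tested genes 3.7% were called higher and 3.1% lower, and of those averaging 10 or more 5.16% and 4.22%. Called shares were 86.7% higher for round spermatid and 16.7% higher for elongating spermatid markers. They were 20% higher and 10% lower for pachytene spermatocyte markers and 25% lower for spermatogonial markers. All but the first of these shares rest on 3 genes or fewer. Of 15 round spermatid markers 13 rose and none fell, with a median of 0.37, and their summed normalized counts ran from 160837 to 166638 in Ccdc117ko libraries and from 132711 to 144107 in WT libraries. In that sum WT replicate 1 was the highest WT library and Ccdc117ko replicate 1 the lowest Ccdc117ko library, as for most chromosome 8 Adam genes. The highest Ccdc117ko sum was in replicate 2 (166638, against 165889 in replicate 3), whereas replicate 3 was the highest Ccdc117ko library for 7 of those 9 genes. Of 12 elongating spermatid markers 2 rose, with sums of 812730 to 851453 in Ccdc117ko libraries and 774667 to 832260 in WT libraries. Among 10 pachytene spermatocyte markers 2 rose and 1 fell, with sums of 218634 to 219818 in Ccdc117ko libraries and 199549 to 214573 in WT libraries. Ldhc carried most of that sum, and without it the sums were 84144 to 85721 in Ccdc117ko libraries and 81794 to 86141 in WT libraries, with 5 markers above 0, 5 below and a median of 0.00. Spermatogonial markers fell for 3 of 12, with a median of -0.32 and sums of 9295 to 9773 in Ccdc117ko libraries and 11253 to 12149 in WT libraries.

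Of 14 Sertoli markers 6 fell and none rose, with a median of -0.16 and sums of 66795 to 68818 in Ccdc117ko libraries and 73184 to 75471 in WT libraries. Leydig markers rose for 3 and fell for 1 of 8, with sums of 79197 to 92139 in Ccdc117ko libraries and 66862 to 77389 in WT libraries. Among 6 peritubular myoid markers 1 rose and 1 fell, with sums of 14860 to 15535 in Ccdc117ko libraries and 13665 to 14389 in WT libraries. Actg2 carried that sum, and without it the sums were 3986 to 4489 in Ccdc117ko libraries and 4456 to 4653.5 in WT libraries, with 5 of the 6 markers below 0 and a median of -0.06. Macrophage markers fell for 1 of 10, with sums of 3180 to 3513 in Ccdc117ko libraries and 3335 to 3995 in WT libraries. Called shares were 42.9% lower for Sertoli markers and 37.5% higher and 12.5% lower for Leydig markers. They were 16.7% each way for myoid and 10% lower for macrophage markers, against 3.7% higher and 3.1% lower for all tested genes. The myoid and macrophage shares rest on 1 gene each. No marker was called among 7 of endothelium (sums of 1753 to 1956 in Ccdc117ko libraries and 1966 to 2193 in WT libraries) or among 8 of B and plasma cells (sums of 247 to 299 in Ccdc117ko libraries and 235 to 381 in WT libraries). Of 7 tested epididymal markers none was called, and their sums, 6379 to 6827 in Ccdc117ko libraries and 6087 to 6445 in WT libraries, were almost wholly Cst8, which spermatogenic cells also express; Crisp1 had 2.0 to 6.0 in Ccdc117ko libraries and 2.0 to 9.0 in WT libraries. Adam7, Crisp4, Lcn5, Lcn8 and Spint4 of the epididymal list were not tested, for lack of a row or of counts. The part of these shifts in the Adam values was not tested.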

How the data were processed

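Per the labels' protocols, testis RNA was extracted with TRIzol, DNase-treated and prepared with a stranded mRNA kit. STAR, DESeq2 and mm10 are named in the submitters' processing notes. How reads were counted, and whether by strand, is not given in the sources used here. A log2 value was deposited by the authors per gene and library, read from the values as log2(normalized count + 1), since 100% of values under 500 reads were whole multiples of a step per library within 0.01. The authors also deposited a log2 fold change and an FDR (an adjusted p-value), whose test is not stated.

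Count models (edgeR, DESeq2) on recovered reads had been planned as alternatives and were not run; limma-voom on those reads took their place. Limma-trend (limma 3.58.1, R 4.3.3) was fitted to the deposited values of the 32783 genes averaging 0.5 normalized counts or more, with genotype as the only term. Two-sided p-values were adjusted over those genes (Benjamini-Hochberg), with 0.05 as the threshold. Log2 changes on this scale understate those of genes with few reads. The fit was also run on simulated reads with known changes. These had the same spread setting for every gene, so that run does not show how the fit performs on these libraries.

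Coordinates and transcripts came from GENCODE M21 on GRCm38 (mm10), and promoters from RefSeq (GRCm38.p6). Pairwise identity was computed with Biopython 1.88 and permutations with scipy 1.17.1. The members and lists were chosen with earlier results of these data known, and no test was run over a list. The rule for named genes takes each Adam gene with a mean of at least 10, the called genes of each other list (up to 4, or the 2 most abundant with none called), and further genes were named after their values were seen. For the cell marker lists that rule was not followed, and most called markers are given only as counts. A planned search of protein sequences was not run. No pair of replicates agreed within sampling noise (chi-square per degree of freedom 4.68 to 7.5). Alternatives were pseudocounts of 0.5 and 5, other filters and scalings, a length and GC correction, the replicate block, each library left out, and, chosen after seeing the data, limma-voom and a mean of at least 10 with a library left out.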

Additional observations from a re-analysis of the deposited data

How the results depend on the processing

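The count of Adam genes called by limma, 5, was 15 with a mean of at least 10, 16 with at least 1 CPM in 3 libraries and 3 with TMM scaling. For the germ-line genes, 3 called, it was 10 and 11 with those filters and 5 with upper-quartile scaling. For the somatic genes, 2 called, it was 5 with either filter, and 1 with no filter, TMM scaling, the length and GC correction or limma-voom. Over all genes, 2228 called, it was 3798 and 4127 with those filters, and the length and GC correction gave 1446 higher and 431 lower in place of 1212 and 1016. The cause of these shifts was not tested. A stricter filter leaves fewer genes to adjust over, and it also moved unadjusted p-values. With a mean of at least 10, the unadjusted limma p of Adam17 went from 0.00184 to 0.00116 and that of Adam19 from 0.0607 to 0.0613.

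With a library left out in turn, the counts ran from 0 to 3 for all members, 0 to 2 for germ-line genes, 0 to 1 for somatic genes and 6 to 1268 for all genes. The lowest over all genes was without Ccdc117ko replicate 2 and the highest without WT replicate 1. Leaving out Ccdc117ko replicate 1 gave 22 and replicate 3 gave 8, and leaving out WT replicate 2 gave 12 and replicate 3 gave 21. With a mean of at least 10 as well, added after seeing the data, they ran from 1 to 19, 1 to 14, 0 to 5 and 1714 to 4021. The germ-line median, 0.12, ran from 0.11 to 0.17, its value without WT replicate 1, and the somatic median, -0.26, from -0.31 to -0.22; with the length and GC correction the somatic median was -0.17.

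No label says that the replicate numbers pair the libraries. The correlations of deviations between same-numbered libraries were -0.003, -0.004 and 0.006, values that cannot settle whether the libraries were paired. A fit with the replicate block called 1 member (Adam26b), 1 germ-line gene, 0 somatic genes and 703 of all genes. The sign of Adam11 reversed with the length and GC correction (0.0795), without WT replicate 3 (0.0028) and without Ccdc117ko replicate 3 (0.0396), within a range of -0.125 to 0.0396 over the libraries left out. That of Adam30 reversed with the correction (0.0025), and that of Adam1a with the correction (0.0733) and without WT replicate 1 (0.0016), within a range of -0.055 to 0.0016. Over 703 pairs of a member and an alternative, 9 changed sign, 56 gained a call, 51 lost one and 587 did neither. Scaling moved the median change of genes with a mean of at least 10 from -0.0058 to -0.0046 with TMM and 0.012 with upper quartiles. The planned edgeR and DESeq2 fits on recovered reads were not run; limma-voom was run on those reads in their place.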
